A study of Drosophila melanogaster with 32 samples.

Results

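Sam-S is the Drosophila gene for S-adenosylmethionine synthetase, the enzyme that makes S-adenosylmethionine from methionine and ATP. S-adenosylmethionine is the methyl donor of most cellular methylation reactions, among them methylation of RNA, DNA, proteins and lipids. After decarboxylation it also donates the aminopropyl groups of the polyamines. The gene (FBgn0005278) lies on the plus strand of chromosome 2L in the dm3 build that the submitters' processing notes name. Its members here are all editing sites whose gene name in the deposited files is Sam-S. They number 45 distinct sites of 33835 in the series, on 88 lines over all libraries. The gene was chosen from its number of listed sites, so those numbers are given as a description and were not tested.

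The study measured A-to-G changes in mRNA of S2 cells, an embryonic Drosophila line with hemocyte-like features. TRIBE joins an RNA-binding protein to the deaminase domain of ADAR, which turns adenosines of bound transcripts into inosine. Sequencing reports inosine as guanosine. The HyperTRIBE form of the domain carries the E488Q change. The design text gives missed targets as the reason for adopting it. Of the 32 samples of the series, 7 had files used here. They were FMRP HyperTRIBE (1 library), Hrp48 HyperTRIBE (2 libraries), Hrp48 TRIBE with the unchanged domain (2 libraries), and the E488Q domain without an RNA-binding protein, called deaminase alone (2 libraries). FMRP is a translational regulator encoded by Fmr1. Hrp48 is an hnRNP protein encoded by Hrb27C. In every group the construct was introduced by transient transfection and induced with CuSO4, and cells were sorted by FACS. The cells analysed therefore carried a fusion made in addition to their own proteins. The labels do not say whether the replicates came from separate cultures, so all p-values measure only the spread between these libraries, which may be technical.

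Each file lists only sites with at least 20 reads and at least 10% editing, the lowest values found over 52199 lines. An unlisted site may have fallen under either minimum or been unedited, and it was never counted as 0. The libraries listed between 13 and 22803 sites each, with median reads per listed site between 27 and 37. The highest number of reads at any site was between 108 and 149 in each library, and reads at a site are not taken here as a measure of expression. Hemocyte markers were listed for 5 of 9 genes (srp, vkg, Cg25C, Ppn and drpr), while Hml, Pxn, NimC1 and Sr-CI had no listed site. Of 4 neuronal markers, brp had 1 site in Hrp48 HyperTRIBE replicate 2, and elav, nSyb and Syt1 had none. Listing depends on both expression and editing, so it is a weak check of the cell label.

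The 45 sites spanned 6377 bases, at 2L:107991-114368. All 45 were marked as exonic in the files, and none overlapped another gene. FMRP HyperTRIBE listed 6 Sam-S sites. Hrp48 HyperTRIBE listed 38 in replicate 1 and 32 in replicate 2 (mean 35 ± 4.24, SD, n = 2). Hrp48 TRIBE listed 6 in each library, and the deaminase alone listed 0 in each. The deaminase-alone libraries listed 13 and 459 sites over all genes, so absence of Sam-S there is an absence among few listed sites. A second set of base counts in the files, from a source not given in the sources used here, covered the 45 Sam-S positions with 14 to 49 reads each. Among its 1281 reads at these positions, 0 were guanosine. Cytidine or thymidine reads at listed Sam-S sites numbered 1 of 3243 in Hrp48 HyperTRIBE replicate 1 (0.0308%, Wilson 95% interval 0.00544 to 0.174%). They numbered 1 of 2737 in replicate 2, and 0 in the FMRP HyperTRIBE library and both Hrp48 TRIBE libraries. The intervals cover counting error only, since reads are not independent molecules.

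**Figure D1:**
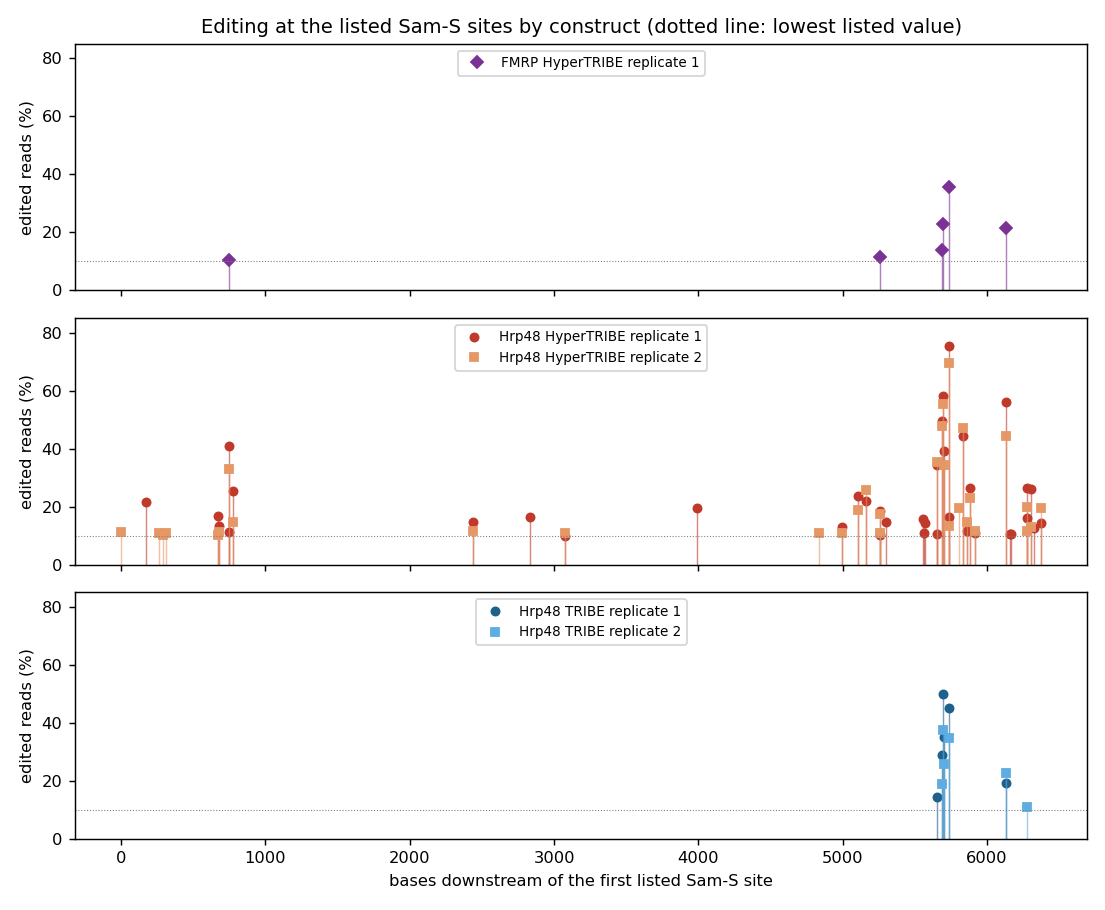
Percent of edited reads (vertical axes) at each listed Sam-S site against its distance in bases from the first listed site (horizontal axis), with 1 panel each for FMRP HyperTRIBE, Hrp48 HyperTRIBE and Hrp48 TRIBE. The deaminase-alone libraries listed no Sam-S site and have no panel; the Hrp48 TRIBE points all lie in the last part of the range, where the highest Hrp48 HyperTRIBE points (75.3% and 69.7%) also lie.

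Every one of the 45 sites was listed in at least 1 Hrp48 HyperTRIBE library. The 2 Hrp48 HyperTRIBE libraries shared 25 sites, which is 65.8% of the sites of replicate 1 and 78.1% of those of replicate 2. Over all genes they shared 10851 sites, of 19706 in replicate 1 and 22803 in replicate 2. These sets were not matched for reads, and median reads were 94.5 and 97 at listed Sam-S sites, against 33 and 37 at all listed sites. The other 20 sites were listed in 1 library only, 13 in replicate 1 and 7 in replicate 2. No site was listed only with FMRP HyperTRIBE or only with Hrp48 TRIBE. The 7 distinct Hrp48 TRIBE sites and the 6 FMRP HyperTRIBE sites all fell among the 25. Over all genes, 2209 of the 4694 FMRP HyperTRIBE sites were in both Hrp48 HyperTRIBE libraries. For Hrp48 TRIBE, whose libraries listed 1252 and 1400 sites, 1395 sites of at least 1 library were in both Hrp48 HyperTRIBE libraries. Whether Sam-S differs from other genes in this was not tested, and its sites had more reads than most.

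Sam-S was among the genes with the most listed sites. Among 3220 genes with a site in both Hrp48 HyperTRIBE libraries, the median was 2 such sites. Only 7 genes had more than the 25 of Sam-S, and 1 other gene had as many. In Hrp48 TRIBE, 255 genes had a site in both libraries. None had more than the 5 of Sam-S, and 2 others had as many. By Euclidean distance in log2(sites + 1) over the 7 libraries, the 5 genes most like Sam-S were Unc-76 (distance 0.836), CG11537 (1.74), CG42666 (1.84), pes (2.02) and drk (2.08). Unc-76 had 6 sites in FMRP HyperTRIBE, 24 and 25 in Hrp48 HyperTRIBE, 8 and 7 in Hrp48 TRIBE, and 0 in both deaminase-alone libraries. The profile of CG42666 was 6 sites in FMRP HyperTRIBE, 33 and 28 in Hrp48 HyperTRIBE, 1 and 5 in Hrp48 TRIBE, and 0 in both deaminase-alone libraries.

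Editing at the 25 sites shared by the Hrp48 HyperTRIBE libraries ran from 10.2 to 75.3% in replicate 1 (median 23.8%) and from 10.2 to 69.7% in replicate 2 (median 18.7%). For comparison, all 10851 sites shared by these libraries had medians of 20% and 18.3%. Mean editing over both libraries was above the all-site median of 19.3% at 14 of the 25 Sam-S sites. Replicate 1 was higher at 18 of the 25, with a median difference of 3.04 percentage points (range -5.23 to 13.02). Over all shared sites it was higher at 55.3%, with a median of 0.910 points. The median absolute difference between replicates was 3.61 points at the Sam-S sites and 4.68 points over all sites. These sets were not matched for reads, and listed Sam-S sites had more reads in both libraries than the median of all listed sites. The Wilson 95% intervals of the replicates overlapped at all 25 Sam-S sites.

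**Figure D2:**
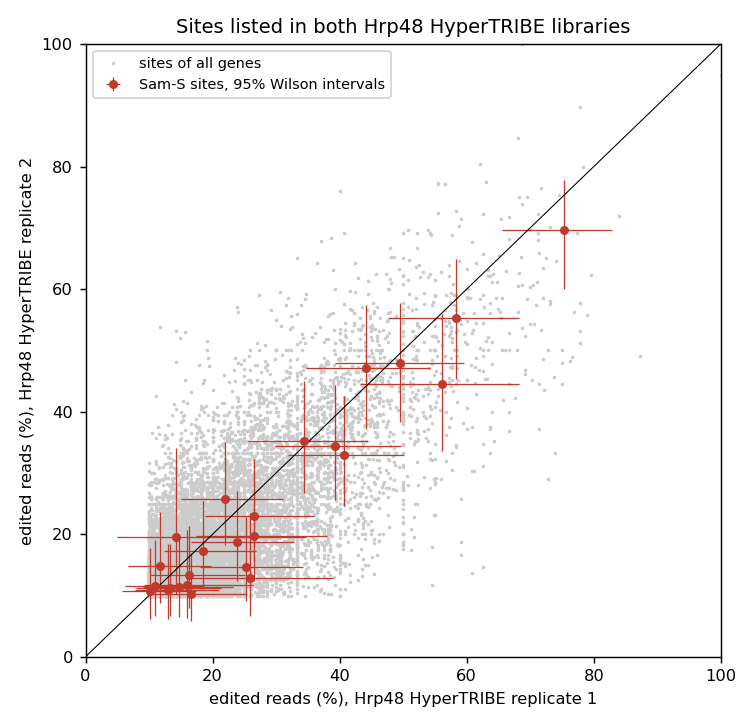
Percent of edited reads in Hrp48 HyperTRIBE replicate 2 (vertical axis) against replicate 1 (horizontal axis) for sites listed in both libraries, with Sam-S sites in red, their bars showing Wilson 95% intervals, and sites of all genes in grey. The line marks equal editing; the 25 Sam-S sites follow it up to 75.3% in replicate 1 and 69.7% in replicate 2.

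Neighbouring sites were grouped where the gap between sites shared by both Hrp48 HyperTRIBE libraries was at most 100 bases. This gave 7 clusters. Of the 25 sites, 22 (88%) had another of them within 100 bases. The share over all genes was not computed, and Sam-S was chosen for its number of sites. The median gap was 36 bases and the largest 2554 bases.

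The cluster at 2L:113647-113910 held 10 of the 25 sites within 263 bases, more than any other cluster. Its median editing was 36.9% in Hrp48 HyperTRIBE replicate 1 and 34.8% in replicate 2. It contained 5 of the 7 Hrp48 TRIBE sites and 3 of the 6 FMRP HyperTRIBE sites. Within it editing was uneven between close neighbours. Position 113727 was edited at 75.3% and 69.7% in the Hrp48 HyperTRIBE libraries, while the next base, 113728, was edited at 16.3% and 13.3%. Position 113826 was edited at 44.2% and 47.2%, with position 113849, 23 bases away, at 11.7% and 14.8%. Position 113870 stood at 26.5% and 22.9%, and 113910 at 11% and 11.5%.

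The 3 other clusters of several sites had 4 sites each. At 2L:108662-108767, within 105 bases, the highest site was 108741, edited at 40.7% and 33.01% in the Hrp48 HyperTRIBE libraries. Its neighbours there were 108767 (25.2% and 14.7%), 108662 (16.7% and 10.2%) and 108669 (13.3% and 11.3%). At 2L:113096-113250, within 154 bases, no site reached 30%: 113150 was edited at 22% and 25.7%, 113096 at 23.8% and 18.7%, 113250 at 18.5% and 17.3%, and 113248 at 10.2% and 10.7%. At 2L:114269-114368, within 99 bases, editing was 26.5% and 19.7% at 114269, 25.9% and 12.9% at 114297, 15.9% and 11.7% at 114270, and 14.3% and 19.5% at 114368. The last of these rested on 21 and 41 reads. The sites without a neighbour were 114125 (56.1% and 44.4%), 110430 (14.7% and 11.5%) and 112984 (13% and 10.9%). Only 114125 among them was also listed with another construct.

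Reads at the sites varied along the gene. In the Hrp48 HyperTRIBE libraries the median was 94 and 98 reads at sites from 113545 to 113910, and 51 and 72 reads at sites from 114125 to 114368. Among the sites from 107991 to 108305, replicate 1 listed 1 with 23 reads, and replicate 2 listed 4 with 28 to 46 reads. FMRP HyperTRIBE sites had 51 to 106 reads, Hrp48 TRIBE replicate 1 sites 26 to 48 reads, and Hrp48 TRIBE replicate 2 sites 31 to 75 reads. At 50 reads or more were 32 of 38 and 26 of 32 sites in the Hrp48 HyperTRIBE libraries, against 0 of 6 in Hrp48 TRIBE replicate 1 and 4 of 6 in replicate 2. Among the 5 libraries that list Sam-S sites, Hrp48 TRIBE replicate 1 thus had the lowest median reads there, 32.5.

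**Figure D3:**
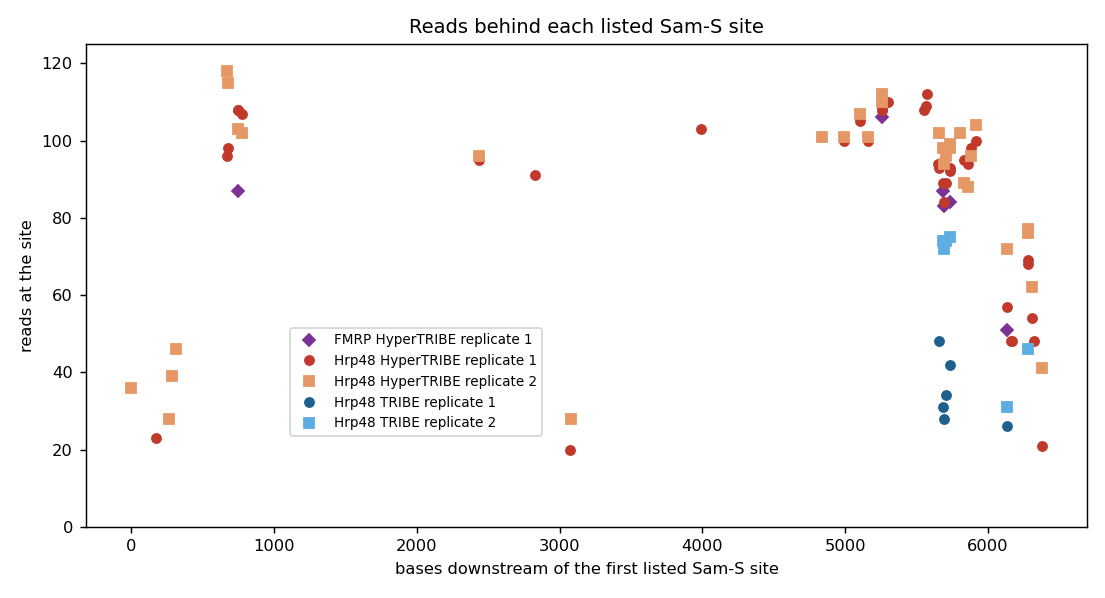
Reads at each listed Sam-S site (vertical axis) by distance in bases from the first listed site (horizontal axis), 1 symbol for each library. Hrp48 TRIBE replicate 1 lies lowest in the shared region, between 26 and 48 reads, and each library has fewer reads from position 114125 on than in the cluster before it.

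The 20 sites listed in only 1 Hrp48 HyperTRIBE library had editing near the listing minimum. The median was 12.5% at the 13 sites of replicate 1 (10 to 21.7%), of which 9 were under 15%, and 10.9% at the 7 sites of replicate 2 (10.3 to 19.6%), of which 6 were under 15%. The lowest was 111067, with 2 edited of 20 reads (10%) in replicate 1, which sits on both minimums. The next base, 111068, was listed in replicate 2 with 3 of 28 reads (10.7%). A Wilson lower bound above 10% was reached at 3 sites of replicate 1 and 1 of replicate 2. These were 111984 (19.4% of 103 reads), 110821 (16.5% of 91 reads) and 113545 (15.7% of 108 reads) in replicate 1, and 113796 (19.6% of 102 reads) in replicate 2.

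The rest of the replicate 1 sites were 108163 (21.7% of 23 reads), 113288 (14.5% of 110), 113562 (14.3% of 112), 114316 (12.5% of 48), 108740 (11.1% of 108), 113554 (11.01% of 109), 113642 (10.6% of 94), and 114153 and 114160 (10.4% of 48 each). The rest of the replicate 2 sites were 107991 (11.1% of 36 reads), 108305 (10.9% of 46), 112826 (10.9% of 101), 108255 (10.7% of 28) and 108278 (10.3% of 39). The values that these positions had in the other replicate are not known beyond falling under a minimum.

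FMRP HyperTRIBE listed 6 Sam-S sites in its single library, so there is no replicate check. Editing was 35.7% at 113727 (Wilson 95% interval 26.3 to 46.4%), 22.9% at 113686, 21.6% at 114125, 13.8% at 113678, 11.3% at 113250 and 10.3% at 108741. FMRP HyperTRIBE editing was below both Hrp48 HyperTRIBE libraries at 6 of 6 sites, and over all genes at 1337 of 2209 sites listed in the 3 libraries (60.5%). The ratio of FMRP HyperTRIBE editing to mean Hrp48 HyperTRIBE editing ran from 0.281 at 108741 to 0.633 at 113250, with a median of 0.416. Over the 2209 sites the median ratio was 0.743. No listed value is under 10%, so the ratio cannot fall far below 1 where Hrp48 HyperTRIBE editing is low. The same minimum limits how often FMRP HyperTRIBE can lie below both Hrp48 HyperTRIBE libraries. All 10851 sites shared by the Hrp48 HyperTRIBE libraries had median editing of 20% and 18.3%, well under that of these 6 Sam-S sites. Most of them were not among the 2209, whose own Hrp48 HyperTRIBE editing was not computed. The Sam-S and all-gene values were not matched for editing. Whether Sam-S differs from other genes in this ratio was not tested. Reads at these sites were 0.791 to 0.972 of the Hrp48 HyperTRIBE mean. The 6 sites had median editing of 52.8% and 46.2% in the Hrp48 HyperTRIBE libraries, and the 19 other shared sites had 16.7% and 14.7%. Listing with FMRP was not limited to the highest sites: 113250, edited at 18.5% and 17.3% with Hrp48, was listed, and 113826, at 44.2% and 47.2%, was not. The FMRP and Hrp48 libraries belong to different library sets per the file headers, and the RNA-binding protein and the set cannot be told apart.

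Hrp48 TRIBE listed 7 distinct sites, 5 of them in both libraries. All 7 were Hrp48 HyperTRIBE sites in both replicates, as were 1395 Hrp48 TRIBE sites over all genes. The 5 were edited in Hrp48 HyperTRIBE at medians of 56.1% and 47.96%. The 2 sites of a single TRIBE library, 113647 and 114269, had Hrp48 HyperTRIBE medians of 30.4% and 27.5%, and the 18 sites without TRIBE listing had 16.5% and 13.99%. Position 113647 was edited at 34.4% and 35.3% in Hrp48 HyperTRIBE, against 14.6% of 48 reads in Hrp48 TRIBE replicate 1. Position 114269 was edited at 26.5% and 19.7% in Hrp48 HyperTRIBE, against 10.9% of 46 reads in Hrp48 TRIBE replicate 2. Of the 5 sites with the highest mean Hrp48 HyperTRIBE editing, 113727, 113686, 114125 and 113678 were in both TRIBE libraries, and the fifth, 113826, was in neither. The sixth and seventh, 108741 and 113695, had nearly equal means of 36.9% (SD 5.47 and 3.50, n = 2 each). Position 113695 was listed in both TRIBE libraries and 108741 in neither.

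The next comparison is of Hrp48 HyperTRIBE with Hrp48 TRIBE at adenosines that both forms of the deaminase edit with the same RNA-binding protein. Whether a difference comes from the E488Q change itself or from the amount of each fusion protein was not tested. The comparison was made with limma on log2((edited + 0.5)/(unedited + 0.5)) over the 298 sites of all genes listed in all 4 Hrp48 libraries. Of the 5 Sam-S sites among them, 3 were higher in Hrp48 HyperTRIBE at a Benjamini-Hochberg adjusted p under 0.05 and 0 were lower. The background was 83 of 298 sites higher (27.9%) and 0 lower, with 0 lower at an unadjusted p under 0.05 as well. Without Hrp48 TRIBE replicate 2, limma called 81 sites higher and 9 lower, and the median difference over all sites was 0.54 log2 odds; the Sam-S counts were then 3 higher and 0 lower. The median difference was 1.58 log2 odds at the Sam-S sites and 0.86 over all sites. The background was not matched for reads or for editing. A tested site must reach the editing minimum in both Hrp48 TRIBE libraries. The difference therefore cannot be large where Hrp48 HyperTRIBE editing is low. In Hrp48 HyperTRIBE the 5 Sam-S sites had median editing of 56.1% and 47.96%. All sites shared by these libraries had 20% and 18.3%, and the editing of the 298 alone was not computed. Among the 56 sites with at least 50 reads in every Hrp48 library, 31 were higher and the median difference was 1.18 log2 odds. No Sam-S site was among these 56. Listed Sam-S sites had median reads of 94.5 and 97 in Hrp48 HyperTRIBE, against 33 and 37 at all listed sites. Both Hrp48 HyperTRIBE libraries lay above both Hrp48 TRIBE libraries at 4 of the 5, against 60.7% of the 298. The editing minimum limits this share and the number of sites called higher in the same way. Whether Sam-S differs from other genes in these values was not tested.

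At 113727 editing was 75.3% of 93 reads and 69.7% of 99 reads in Hrp48 HyperTRIBE, against 45.2% of 42 reads and 34.7% of 75 reads in Hrp48 TRIBE. The libraries of the constructs did not overlap, and the difference was 1.97 log2 odds (SE 0.58, limma adjusted p = 0.00628). At 114125 editing was 56.1% of 57 reads and 44.4% of 72 reads in Hrp48 HyperTRIBE, against 19.2% of 26 reads and 22.6% of 31 reads in Hrp48 TRIBE. Here too the libraries did not overlap, and Hrp48 HyperTRIBE was higher by 1.85 log2 odds (SE 0.58, limma adjusted p = 0.0102). At 113678 editing was 49.4% of 89 reads and 47.96% of 98 reads in Hrp48 HyperTRIBE, against 29.03% of 31 reads and 18.9% of 74 reads in Hrp48 TRIBE. The libraries were again apart, and Hrp48 HyperTRIBE was higher by 1.58 log2 odds (SE 0.58, limma adjusted p = 0.0282).

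The 2 sites that did not pass lie 8 and 17 bases downstream of 113678. At 113686 editing was 58.3% of 84 reads and 55.3% of 94 reads in Hrp48 HyperTRIBE, against 50% of 28 reads and 37.5% of 72 reads in Hrp48 TRIBE. The libraries did not overlap, but the difference was 0.76 log2 odds with SE 0.58, and the limma adjusted p was 0.338. At 113695 editing was 39.3% of 89 reads and 34.4% of 96 reads in Hrp48 HyperTRIBE, against 35.3% of 34 reads and 25.7% of 74 reads in Hrp48 TRIBE. These ranges overlapped, and the difference was 0.41 log2 odds (SE 0.58, limma adjusted p = 0.642). Single libraries move these values: without Hrp48 TRIBE replicate 2 the difference was 0.39 log2 odds at 113686 and 0.08 at 113695, and without Hrp48 TRIBE replicate 1 it was 1.12 and 0.74. Without Hrp48 HyperTRIBE replicate 1 the difference at 113695 was 0.26.

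**Figure D4:**
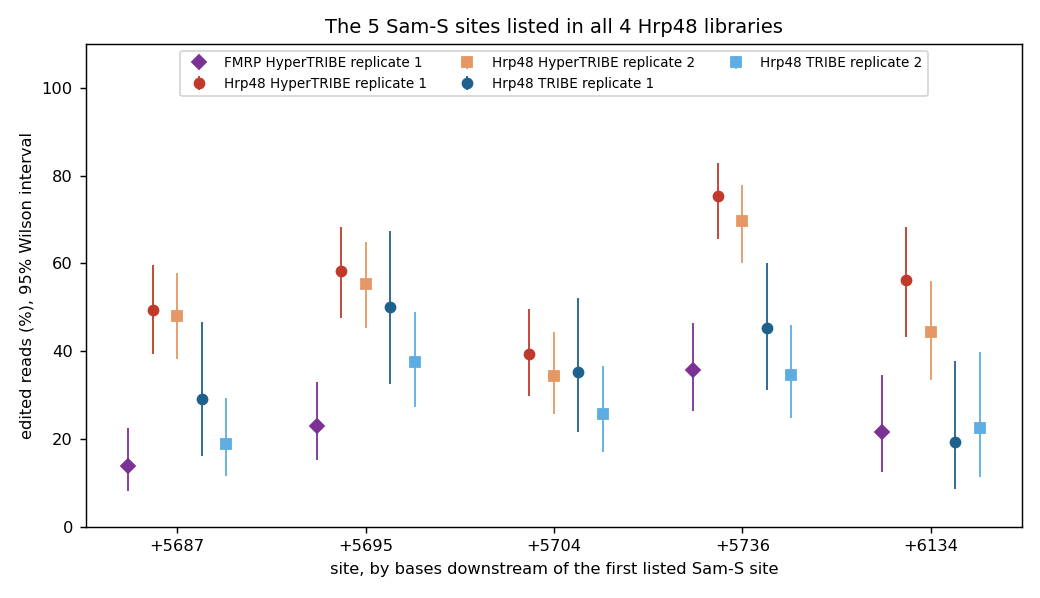
Percent of edited reads (vertical axis, Wilson 95% intervals) at the 5 Sam-S sites listed in all 4 Hrp48 libraries, placed by distance in bases from the first listed site, with the FMRP HyperTRIBE value where there is one. Distances 5687, 5695, 5704, 5736 and 6134 are positions 113678, 113686, 113695, 113727 and 114125; Hrp48 HyperTRIBE lies above Hrp48 TRIBE without overlap of the points at all of these except 113695.

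Per the file headers, replicate 1 of both Hrp48 constructs came from one library set and replicate 2 of both from another. Within the set of replicate 1, Hrp48 HyperTRIBE was higher by 30.03 percentage points at 113727, 36.9 at 114125, 20.4 at 113678, 8.33 at 113686 and 4.03 at 113695. Within the set of replicate 2, it was higher by 35.03 points at 113727, 21.9 at 114125, 29.04 at 113678, 17.8 at 113686 and 8.70 at 113695. All 10 differences within a set had the same direction. At the 4 sites where both Hrp48 HyperTRIBE libraries lay above both Hrp48 TRIBE libraries, as at 60.7% of the 298, this was already fixed. Only 113695 could have differed, so the shared direction adds little. The calls rest on both Hrp48 HyperTRIBE libraries. Without replicate 1, or without replicate 2, 0 of the 5 sites passed, and 1 of the 298. The spread then comes from the Hrp48 TRIBE libraries alone (SE 0.89), and the lone library is assumed to vary as they do. Without Hrp48 TRIBE replicate 1, 171 of the 298 sites were higher and 4 Sam-S sites passed, with 113686 added at a limma adjusted p of 0.0284 (range over all alternatives 0.0284 to 0.694).

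Differences between sites of the same library remove any shift that a whole library shares. They were examined after the values were seen, for the 10 pairs among the 5 Sam-S sites. At 8 pairs the Hrp48 HyperTRIBE and Hrp48 TRIBE values did not overlap, and over all genes this held at 58 of 101 pairs of sites in the same gene (57.4%). No test shows that the Sam-S sites differ in their change between the constructs. An exact permutation test of 2 libraries against 2 cannot give a two-sided p below 0.333, and each of the 8 had this value. The pair 113727 minus 113695, 32 bases apart, differed by 2.20 and 2.11 log2 odds in Hrp48 HyperTRIBE, against 0.58 and 0.61 in Hrp48 TRIBE. In percentage points these differences were 35.9 and 35.3 in Hrp48 HyperTRIBE, against 9.94 and 8.99 in Hrp48 TRIBE.

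The order of editing was opposite in the constructs for 2 of the 6 pairs within 50 bases, in all 4 libraries. Position 113727 was above 113686 by 16.9 and 14.4 points in Hrp48 HyperTRIBE, and below it by the signed differences -4.76 and -2.83 points in Hrp48 TRIBE. Position 113695 was below 113678 in Hrp48 HyperTRIBE (-10.1 and -13.6 points) and above it in Hrp48 TRIBE (6.26 and 6.76 points). In the FMRP HyperTRIBE library the order was 113727, then 113686, then 113678, with 113695 not listed. The order at the first pair was thus the same in all 3 HyperTRIBE libraries.

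Over all genes, 35 pairs of tested sites lay within 50 bases of each other. Values did not overlap between the constructs at 22 of them (62.9%), and the order was opposite in all 4 libraries at 4 (11.4%). Sam-S gave 6 of 6 and 2 of 6 of these, and the other 22 genes 16 of 29 and 2 of 29. The 6 Sam-S pairs come from 4 sites and are not independent. Replicates of the same construct also lay closer together at Sam-S, but the pairs were not matched for reads. Median reads at listed Sam-S sites were 94.5 and 97 in Hrp48 HyperTRIBE, against 33 and 37 at all listed sites. In Hrp48 TRIBE they were 32.5 and 73, against 27 and 29. These medians cover all listed sites, not the sites of the pairs. The Sam-S sites of the pairs had 28 to 42 reads in Hrp48 TRIBE replicate 1. Closer replicates make a lack of overlap easier to reach, and whether read number accounts for the closer replicates was not tested. The median replicate difference was 0.17 log2 odds in Hrp48 HyperTRIBE and 0.09 in Hrp48 TRIBE for Sam-S pairs, and 0.42 in Hrp48 HyperTRIBE and 0.73 in Hrp48 TRIBE for pairs of other genes.

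**Figure D5:**
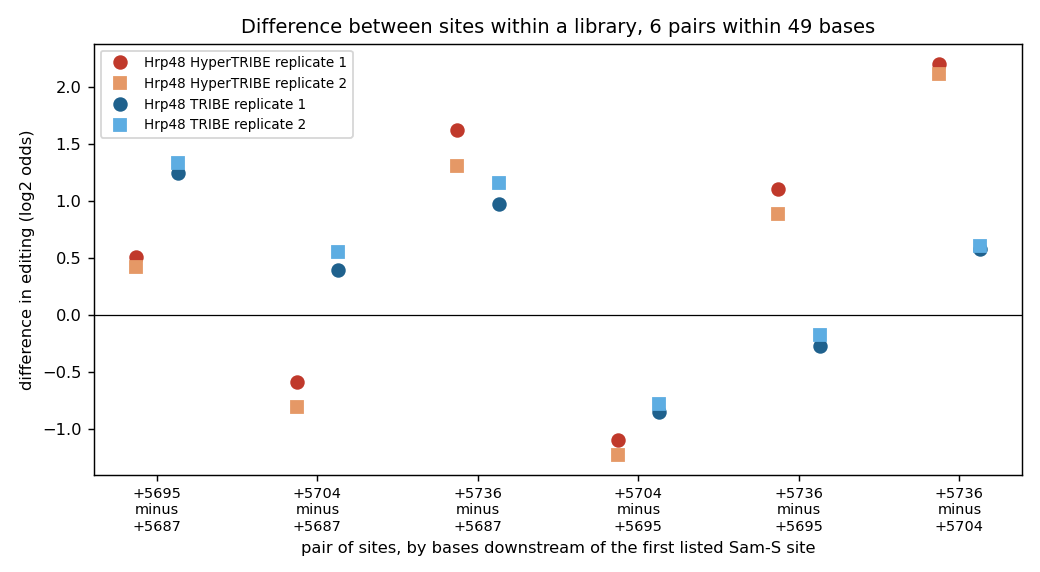
Difference in editing between 2 Sam-S sites of the same library (vertical axis, log2 odds) for the 6 pairs within 49 bases, named by distance in bases from the first listed site (horizontal axis). The Hrp48 HyperTRIBE and Hrp48 TRIBE points do not overlap at any of the 6 pairs and lie on opposite sides of 0 at 2 of them. At those 2 pairs the Wilson intervals of the sites overlap in every Hrp48 library.

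Like most listed genes, the other genes of S-adenosylmethionine metabolism had fewer listed sites than Sam-S, which was chosen for its number of sites. Of 13 genes listed for the S-adenosylmethionine cycle and its use, besides Sam-S, 6 had a listed site in any library. They were CG9977, CG10623, Cbs, Eip55E, Nmdmc and pug, and the list was not limited to enzymes of the cycle itself. Together they had 9 sites in FMRP HyperTRIBE, 24 and 23 in Hrp48 HyperTRIBE, 0 and 4 in Hrp48 TRIBE, and 0 in both deaminase-alone libraries. Most of the Hrp48 HyperTRIBE sites were in CG9977, an S-adenosylhomocysteinase-like gene. It had 4 sites in FMRP HyperTRIBE, 16 and 14 in Hrp48 HyperTRIBE, and 0 and 4 in Hrp48 TRIBE. In FMRP HyperTRIBE, Nmdmc had 3 sites and pug had 2. None of the 13 had a site in all 4 Hrp48 libraries, so none entered the limma comparison.

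In the polyamine branch, 3 of 8 genes were listed, each with sites in both Hrp48 HyperTRIBE libraries. SamDC, which decarboxylates S-adenosylmethionine, had 1 site in FMRP HyperTRIBE, 3 in each Hrp48 HyperTRIBE library, and 0 in both Hrp48 TRIBE libraries. CG4300, named spermine synthase in the list, had 1 site in FMRP HyperTRIBE, 3 in each Hrp48 HyperTRIBE library, and 0 and 1 in Hrp48 TRIBE. Mtap, which acts on the methylthioadenosine left by polyamine synthesis, had 1 site in FMRP HyperTRIBE, 3 and 1 in Hrp48 HyperTRIBE, and 0 in both Hrp48 TRIBE libraries.

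All 10 genes of the m6A machinery, which uses S-adenosylmethionine to methylate mRNA or reads that mark, were listed in some library. Only 4 of the 10 had a site in both Hrp48 HyperTRIBE libraries. Over the series this held for 3220 of the 5181 genes listed in any library. The 10 genes had 5 sites in FMRP HyperTRIBE, 25 and 23 in Hrp48 HyperTRIBE, 2 and 5 in Hrp48 TRIBE, and 0 and 1 in the deaminase-alone libraries. Their only site in all 4 Hrp48 libraries, in the m6A reader YT521-B, had a difference of -0.50 log2 odds (limma adjusted p = 0.560). The 1 deaminase-alone site was also in YT521-B. Over these 3 lists of 31 genes, no gene had as many sites in both Hrp48 HyperTRIBE libraries as Sam-S, and the nearest was CG9977 with 12. The choice of Sam-S made this likely, since only 7 of 3220 genes had more such sites and the median was 2.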

How the data were processed

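Sites came from deposited site lists of 7 libraries. Each line gives, per the file headers and values, whole-number read counts of each base, the edited and total reads, and the percent edited as computed by the authors. A second set of base counts gave the strand and the guanosine reads at the Sam-S positions, and a deposited score (10 times the percent) was not used. Picard 2.8.2, TopHat2 2.1.1 and the dm3 build appear in the submitters' processing notes, with no role stated. No source used here states the listing thresholds. Base counts did not sum to the total on 6 of 52199 lines.

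Groups and replicate numbers came from sample titles. Sites were matched by position and strand, and shared sites are those in both libraries of a construct. Intervals are Wilson 95% and cover counting error only. The members and gene lists were chosen with earlier results of these data known. Named sites were all those listed with FMRP HyperTRIBE or Hrp48 TRIBE and the 5 highest in Hrp48 HyperTRIBE; all other Sam-S sites were given with them. limma 3.58.1 in R 4.3.3 was run on log2 odds (offset 0.5 reads) of all 298 sites, adjusted by Benjamini-Hochberg at 0.05, after testing on simulated data. It gave every site the same standard error, without weight for read number. Tables and plots used scipy 1.17.1, matplotlib 3.10.9, pandas 2.3.3 and numpy 2.4.6 in Python 3.11.15. Alternatives were the offset, read and editing minimums, percent edited, read weights, cluster gap, replicate block and leaving out each library. No sequence is printed, since no dm3 sequence was used here.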

Additional observations from a re-analysis of the deposited data

How the results depend on the processing

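The count of 3 of 5 Sam-S sites higher in Hrp48 HyperTRIBE than in Hrp48 TRIBE was also 3 with an offset of 1 read, on percent edited, with sites weighted by reads, and among 7 Sam-S sites when 1 TRIBE library sufficed. Leaving out each library gave 0 to 4. With the replicate block it was 3; replicate numbers did not pair the samples by the rule used (correlation of replicate deviations across sites -0.01, 2 pairs). A minimum of 50 reads in every Hrp48 library left no Sam-S site to test. Adjusted p over all alternatives ran from 0.000121 to 0.335 at 113727, from 0.00746 to 0.386 at 114125 and from 0.00165 to 0.385 at 113678, with the high ends from leaving out a Hrp48 HyperTRIBE library. No difference changed direction. Counting only sites with at least 20% editing gave 15 and 10 Sam-S sites in the Hrp48 HyperTRIBE libraries, a mean of 12.5, and 3 in FMRP HyperTRIBE. Counting only sites with at least 50 reads gave 0 in Hrp48 TRIBE replicate 1 and 4 in replicate 2, a mean of 2. There were 12 clusters with a gap of at most 50 bases and 13 when sites of either Hrp48 HyperTRIBE library counted. Median editing of shared sites, 19.97% from means over both libraries, was 18.7 to 23.8% leaving out each replicate. Sites near 10% editing or 20 reads enter or leave a list with a change of few reads, which limits what listing in a single library shows.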

Other observations

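Position 113826 of Sam-S, edited at 44.2% and 47.2% of 95 and 89 reads in Hrp48 HyperTRIBE, was listed neither with FMRP HyperTRIBE nor with Hrp48 TRIBE. It was singled out after its values were seen. Of the 34 sites of all genes that were in both Hrp48 HyperTRIBE libraries with 40 to 50% mean editing and at least 80 reads, 25 (73.5%, Wilson 95% interval 56.9 to 85.4%) were listed with FMRP HyperTRIBE, and 25 (73.5%) in a Hrp48 TRIBE library. With limits of 30 to 60% and at least 50 reads, also chosen after seeing the data, 461 sites qualified, and the shares were 47.7% with FMRP HyperTRIBE and 50.5% in a Hrp48 TRIBE library. Reads at 113826 in the libraries that do not list it are not known. Positions 113796 and 113849 on either side were not listed with these constructs either. In Hrp48 HyperTRIBE, 113796 was listed only in replicate 2, at 19.6%, and 113849 was edited at 11.7% and 14.8%. The 18 shared Sam-S sites without TRIBE listing had medians of 16.5% and 13.99%, so the absence of these neighbours says little about 113826.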
